A study of Drosophila melanogaster with 48 samples.

Results

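The cytochrome P450 genes of Drosophila melanogaster were taken as every gene whose FlyBase symbol has the form Cyp, family number, subfamily letter and member number, which gave 84 of the 15065 gene IDs in the tables. P450 genes with symbols of another form are not among them. S2 and S3 cells, lines of late embryonic origin, received 2 µg of double-stranded RNA (dsRNA) against Rrp6, Csl4, Rrp40 or, as the control, GFP, and RNA was taken 5 days later. Poly(A) or RiboMinus (ribosomal RNA-depleted) libraries were made from it. In the poly(A) RNA of S2 cells there were 2 Rrp6, 2 Csl4, 1 Rrp40 and 2 GFP libraries, in that of S3 cells 2, 2, 2 and 3, in the RiboMinus RNA of S3 cells 2 of each, and in that of S2 cells 1 of each, 28 libraries in all. Each of the 84 genes was compared between an exosome dsRNA and GFP dsRNA within a line and an RNA fraction.

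Cytochrome P450s are haem enzymes that insert an oxygen atom into small molecules. In insects they fall into 4 clans. The CYP3 and CYP4 clans hold most of the enzymes known for breaking down insecticides and plant toxins and for fatty acid oxidation, the CYP2 clan holds hormone and developmental enzymes, and the mitochondrial clan sits in mitochondria and holds both kinds. Rrp6 is a nuclear ribonuclease that works with the exosome, the complex that degrades and trims RNA from its end, and Csl4 and Rrp40 are subunits of the exosome cap.

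Of the 84 genes, 39 belonged to the CYP3 clan, 32 to the CYP4 clan, 9 to the mitochondrial clan and 4 to the CYP2 clan, and 2 carried pseudogene symbols (Cyp6a15Psi and Cyp6t2Psi). Another symbol of this form in the reference names, Cyp6a21, was not matched in the tables. Cyp6a2 and Cyp4g1 were listed at 0 in all 28 libraries, and both overlap another gene in the Release 6 annotation (Epac and CG32816). In that annotation 39 of the 84 overlap another gene, and 41 stand in 14 runs of adjacent P450 genes. Nothing in the labels or headers says whether reads were counted by strand, so reads of a P450 gene and of a gene that overlaps it cannot be told apart. The near-identical copies Cyp12d1-p and Cyp12d1-d, and the close pairs Cyp6a17 with Cyp6a23 and Cyp9f2 with Cyp9f3, may have split or lost reads in the same way and their values are uncertain.

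Libraries held 67743 to 69426568 reads on genes, with a deeper and a shallower library in most groups. Levels are given in CPM, reads per 1000000 of the library's scaled size, which do not correct for gene length, so they order a gene between libraries but not genes among themselves. The targeted gene's own level was not lower but higher in its own libraries, with a ratio of means of 13.5 to 2580 where GFP libraries held reads, except for Csl4 in S2 poly(A) RNA. There the Csl4 libraries stood at 45 and 216 CPM, below and above the GFP libraries at 78.5 to 93.8. The labels state that depletion was checked on Western blots, and the libraries are named below by the dsRNA on their label. Of 10 blood cell (hemocyte) marker genes, all had reads in GFP poly(A) libraries of both lines. Their summed levels were 2870 to 3590 CPM in S3 and 2600 to 2920 in S2, but single markers differed. Col4a1 stood at 39.6, 79.4 and 60.8 in S3 against 1150 and 1653 in S2, and Pxn at 2629, 2564 and 2210 against 521.8 and 266.5. In these cultures, fewer cells of a type and less RNA per cell cannot be told apart.

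Cyp6d2 stood higher in every exosome library than in every GFP library of 3 sets (poly(A) RNA of S2 cells, then of S3 cells, then RiboMinus RNA of S3 cells), which are given in this order where values are listed by set. Cyp6d2 encodes a CYP3-clan enzyme whose common variants are linked to camptothecin sensitivity in flies. In S2 poly(A) RNA it stood at 224 and 169 CPM in the Rrp6 libraries (the deeper first, here and below), 32.4 and 24.6 in the Csl4 libraries and 18.1 in the Rrp40 library, against 3.99 and 4.63 in the GFP libraries. All 5 exosome libraries lay above both GFP libraries, and the Rrp6 libraries lay above all others. These levels rest on 1415 and 126, 296 and 12, 25, and 35 and 4 reads in the same order.

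Among the S3 poly(A) libraries Cyp6d2 stood at 240 and 504 CPM in the Rrp6 libraries, 53.2 and 198 in the Csl4 libraries and 79.3 and 30.4 in the Rrp40 libraries, against 10.0, 8.44 and 24.6 in the GFP libraries. The groups did not overlap with GFP here either, though the shallower Rrp40 library came close to the shallower GFP library. In the S3 RiboMinus set the levels were 288 and 354 (Rrp6), 93.8 and 194 (Csl4) and 33.8 and 20.6 (Rrp40), against 6.52 and 0 (GFP). The order Rrp6, Csl4, Rrp40, GFP held without overlap in that set, and in S2 poly(A) RNA as well.

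Because Cyp6d2 was singled out from earlier results for its rise with Rrp6 dsRNA, those differences are given as a description. On the log2 scale they were 5.69 ± 0.31, 4.68 ± 0.54 and 5.51 ± 0.43 (SE) by set. The Csl4 and Rrp40 differences use the same GFP libraries. A low GFP value that helped to single out Cyp6d2 thus also enters their p-values. With Csl4 dsRNA the log2 difference from the same GFP libraries was 2.92 ± 0.33 in S2 poly(A) RNA (adjusted p = 7.3e-06, edgeR's quasi-likelihood test with Benjamini-Hochberg adjustment over all genes tested). It was 4.16 ± 0.42 in the S3 RiboMinus set (edgeR adjusted p = 5.8e-19), and 2.99 ± 0.53 in S3 poly(A) RNA, where edgeR's adjusted p of 0.068 missed the threshold of 0.05.

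With Rrp40 dsRNA Cyp6d2 differed by 2.44 ± 0.48 in S2 poly(A) RNA (edgeR adjusted p = 0.043) and by 2.36 ± 0.42 in the S3 RiboMinus set (edgeR adjusted p = 4.9e-05). The S3 poly(A) difference was 2.42 ± 0.52 (edgeR adjusted p = 0.24). The S2 Rrp40 value rests on 1 library of 25 reads, whose spread was assumed to be that of the other groups, and its call was lost without the deeper Csl4, GFP or Rrp6 library (edgeR adjusted p of 0.0529, 0.493 and 0.382). In the S3 RiboMinus set the Csl4 and Rrp40 calls were lost without the deeper GFP library, the only GFP library there with Cyp6d2 reads (edgeR adjusted p of 0.0594 and 0.964), and the Rrp40 call also without the deeper Rrp40 library (0.942). Without the depth class of the library in the fit (the replicate block) no Csl4 or Rrp40 call of Cyp6d2 remained, with edgeR adjusted p of 0.435 and 0.0668 for Csl4 in S2 poly(A) and S3 RiboMinus RNA and 1 for Rrp40 in both. DESeq2 with the block kept both Csl4 calls and lost both Rrp40 calls (adjusted p of 0.0741 and 0.372). The authors' deposited tables call Cyp6d2 for Csl4 in S3 RiboMinus RNA but in neither poly(A) set. For Rrp40 they call it in S3 poly(A) RNA, where edgeR did not, but not in S2 poly(A) or S3 RiboMinus RNA.

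The Rrp6 difference exceeded the Csl4 difference by 2.77 ± 0.25, 1.69 ± 0.54 and 1.35 ± 0.32 on the log2 scale by set. It exceeded the Rrp40 difference by 3.26 ± 0.38, 2.26 ± 0.56 and 3.15 ± 0.36 in the same sets. In S2 RiboMinus RNA, with 1 library a group and no test, Cyp6d2 had 8 reads in the Rrp6 library (95% exact Poisson interval 3.45 to 15.8, counting error only), against 0 in the GFP library. Set against the floor of 3 counts in the GFP library, the 8 reads were at least 3.73-fold higher if both counts are taken as they stand, and the 95% counting interval of the ratio began at 2.39. The Csl4 and Rrp40 libraries of that set had 0 reads as well.

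**Figure D1:**
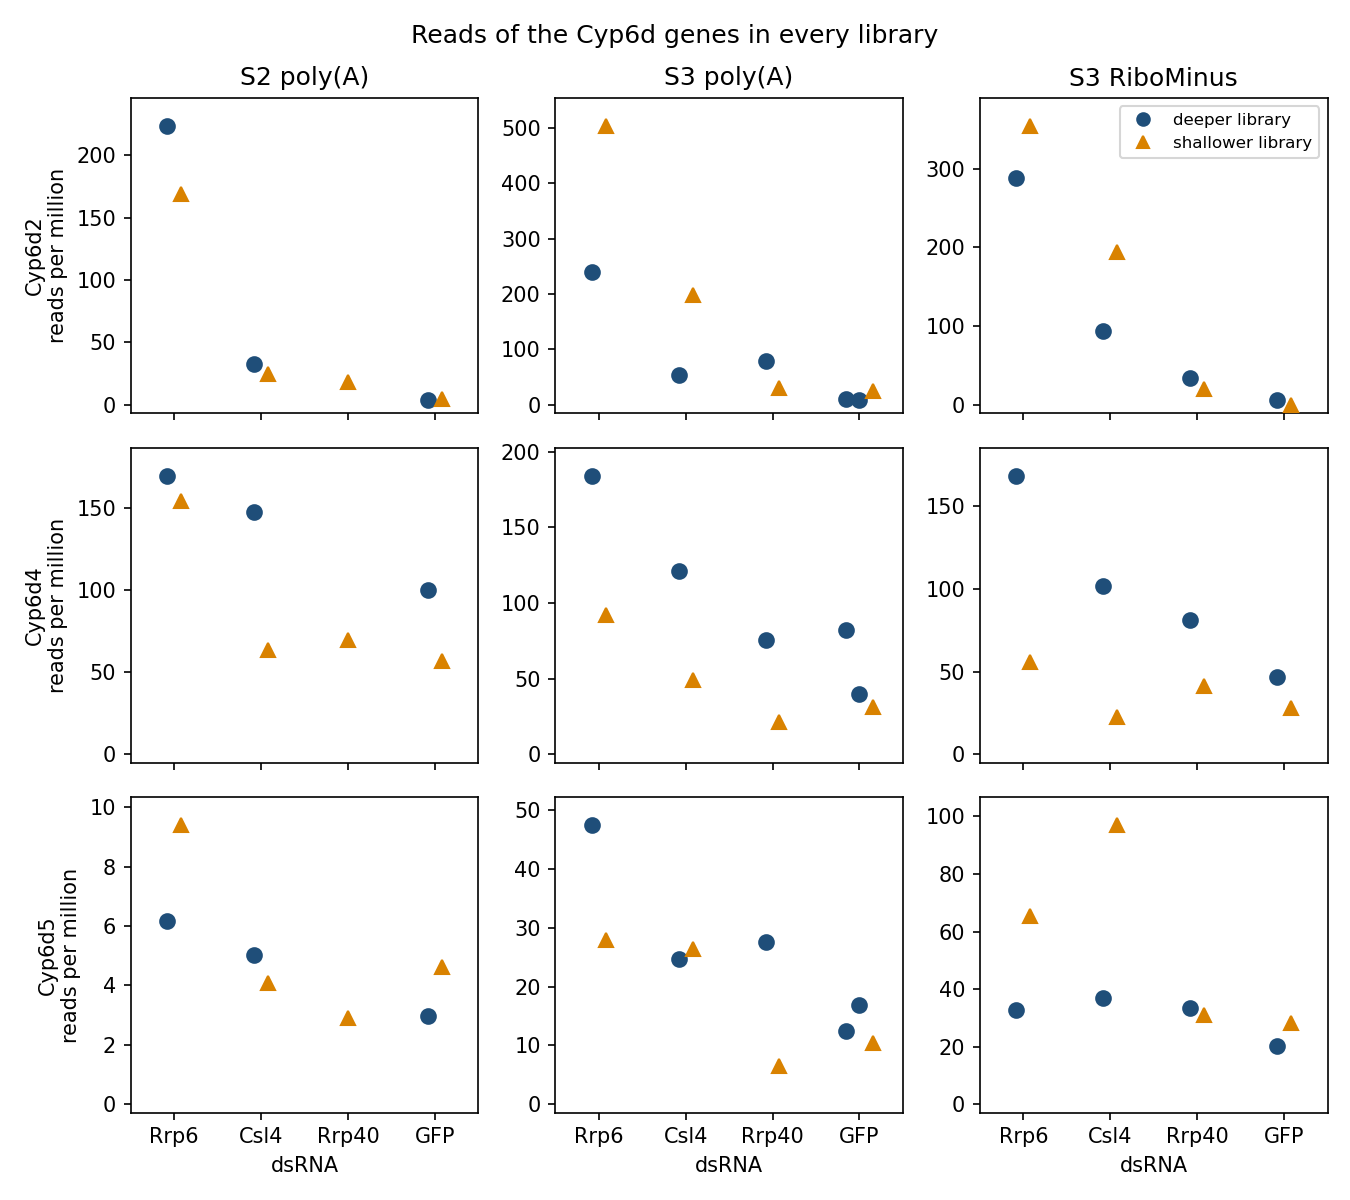
Level of Cyp6d2, Cyp6d4 and Cyp6d5 in CPM (rows, linear axes of different height) in every library of the 3 tested sets (columns), by the dsRNA on the label, with circles for deeper and triangles for shallower libraries. Cyp6d2 libraries of the Rrp6 groups sit between 169 and 504, above every GFP library, which reach 24.6, while the Cyp6d4 and Cyp6d5 groups lie closer together.

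Cyp6d2 held a larger share of all P450 reads with Rrp6 dsRNA. This share of the summed P450 level was 15.9% and 13.0% in the Rrp6 libraries of S2 poly(A) RNA, against 0.549% and 0.637% in the GFP libraries. Within the S3 poly(A) set the share was 12% and 24.4% with Rrp6 dsRNA, against 0.697%, 0.586% and 1.48% with GFP dsRNA. The summed level of the other 83 genes was also higher with Rrp6 dsRNA in S2 poly(A) RNA, at 1180 and 1130 CPM, against 723 in each GFP library. In S3 poly(A) RNA it was 1760 and 1560 in the Rrp6 libraries, against 1430, 1430 and 1630 in the GFP libraries, and there the groups overlapped.

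The genes beside Cyp6d2 were read for comparison. Its overlapping neighbour nsr had at most 5.36 CPM in any library and too few reads for a test. CG30196, the next gene along, stood at 10.9 and 9.39 CPM in the Rrp6 libraries of S2 poly(A) RNA, against 0.570 and 1.16 in the GFP libraries. Among the S3 poly(A) libraries it stood at 17.2 and 50 with Rrp6 dsRNA, against 0.969, 0.949 and 7.77 with GFP dsRNA, and its groups overlapped in neither set. Its Rrp6 differences of 3.84 ± 0.53 and, in the S3 RiboMinus set, 3.80 ± 0.92 passed the test (edgeR adjusted p of 0.00082 and 0.00062). The difference of 4.01 ± 0.78 in S2 poly(A) RNA has no p here, because CG30196 reached the filter's level only in the Rrp6 libraries. This gene was picked out after its values were seen, so its p-values serve as description only.

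The closest relatives of Cyp6d2 by name, Cyp6d4 and Cyp6d5, differed in the same direction by less. Cyp6d4 stood at 169 and 154 CPM in the Rrp6 libraries of S2 poly(A) RNA, against 99.6 and 56.8 in the GFP libraries. In S3 poly(A) RNA the levels were 184 and 92.3 against 82.4, 40.1 and 31.1, and in the S3 RiboMinus set 168 and 56.0 against 47.1 and 28.1. The Rrp6 libraries lay above all GFP libraries in each set.

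Cyp6d4 rose by 1.06 ± 0.25, 1.65 ± 0.32 and 1.74 ± 0.38 by set (log2; edgeR adjusted p of 0.0022, 0.004 and 0.0001). In S2 this call was lost without the shallower Rrp6 library, which left 0.664 (edgeR adjusted p = 0.0539). In the S3 RiboMinus set it was lost without the deeper GFP library, which left 0.978, and without the deeper Rrp6 library, which left 1.55 (edgeR adjusted p of 0.5 and 0.284).

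Cyp6d5, which overlaps rdx, stood at 6.16 and 9.39 CPM with Rrp6 dsRNA, against 2.96 and 4.63 with GFP dsRNA, in S2 poly(A) RNA. Its S3 poly(A) levels were 47.4 and 27.9 against 12.4, 16.8 and 10.4. It rose in S3 poly(A) RNA by 1.61 ± 0.36 (edgeR adjusted p = 0.0077). Its differences in the S2 poly(A) and S3 RiboMinus sets were 1.05 ± 0.59 and 0.78 ± 0.44 (edgeR adjusted p of 0.16 and 0.21). The S3 poly(A) call was lost without the deeper Rrp6 library (1.46, edgeR adjusted p = 0.118). The difference between the lines in its response was 0.54 ± 0.66 (edgeR adjusted p = 0.79). With Csl4 or Rrp40 dsRNA neither Cyp6d4 nor Cyp6d5 passed, with log2 differences of -0.49 to 1.09.

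Across the family, some P450 genes rose with Rrp6 dsRNA in each of the 3 tested sets. In the S3 RiboMinus set their share was close to that of all genes. Whether their number differs between sets was not tested. A filter on low reads left 40 of the 84 genes in S2 poly(A) RNA, of which 19 rose (47.5%) and 2 fell, while 20.2% of all genes tested rose and 16.9% fell by the same test. The median log2 difference was 1.09 over these P450 genes and -0.05 over all genes tested, and 33 of the 40 had a positive one. Since a gene can pass the filter through the Rrp6 libraries alone, the 22 genes that passed its level of 6.86 CPM in GFP libraries were also read apart. Of the 19, 4 (Cyp305a1, Cyp4p1, Cyp6t1 and Cyp6w1) reached that level in no library other than those with Rrp6 dsRNA. Their calls thus lean on the same high values that let them into the test. Of the 22 genes 9 rose and 2 fell, against 16.2% of all such genes that rose, and the medians were 0.41 and -0.14. The count of 21 P450 genes that passed fell to 8 without the deeper GFP library and to 7 without the deeper Rrp6 library. It also depended on the depth class of the library in the fit (the replicate block), without which 1 passed, and DESeq2 with the block called 13. The share of all genes is not set beside these counts, so they do not show a shift of the P450 genes alone.

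Within the S3 poly(A) set 42 P450 genes were tested, of which 11 rose (26.2%) and 0 fell, while 19.7% of all genes rose and 16.4% fell. Of the 42, 16 had an unadjusted p under 0.05 in edgeR. The medians were 0.33 over P450 genes and 0.01 over all genes, and among the 33 P450 genes past the filter's level in GFP libraries 8 rose, against 15.7% of all such genes. The count of 11 was 7 without the first or the second GFP replicate or without the deeper Rrp6 library, and 20, 18 and 19 without the shallower Rrp6, Csl4 and Rrp40 library. In the S3 RiboMinus set 46 were tested, of which 6 rose (13.0%) and 1 fell, close to the 12.4% of all genes that rose and, for the falls, 7.35%. Of the 31 genes past the filter's level in GFP libraries 3 rose and 1 fell, against 10.5% of all such genes that rose. Of the 6 that rose, Cyp305a1 reached the filter's level only in the Rrp6 libraries. The count of 7 there was 1 without the deeper GFP library and 2 without the deeper Rrp6 library. Without the replicate block the counts were 3 in the S3 poly(A) set and 1 in the S3 RiboMinus set, and without the filter on low reads 28 passed in the S3 poly(A) set. These counts too stand without the share of all genes in the same fits.

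Summed levels of genes that mark other tissues lay apart between Rrp6 and GFP libraries in several sets. The summed level of 10 fat body markers was 29.9 to 34.9 CPM in the Rrp6 libraries of S2 poly(A) RNA, where Lsp1alpha was at 0, against 11.6 to 21.0 in the GFP libraries, where every marker had reads. In S3 poly(A) RNA it was 32.7 to 37.8, with Lsp2 and Fbp2 at 0, against 11.7 to 21.8, and in the S3 RiboMinus set 112 to 181 against 26.7 to 35.1, of which Lsp1beta made up 98.5 and 65.3 against 3.73 and 0. The summed level of 9 midgut markers in S3 poly(A) RNA was 19.3 to 20.2 against 1.45 to 2.59, with deltaTry at 0 in both groups. Of it lab made up 8.31 and 15.4 against 0.162, 0.303 and 0. Mal-A1, which overlaps Cyp4e1, made up 4.67 and 0.962 against 0.162, 0.171 and 1.295. Jon65Aiv was at 0 with Rrp6 dsRNA, and alphaTry and betaTry stood at 0.292 and 0.146 in the deeper Rrp6 library and at 0 in the shallower one. The summed level of 5 Malpighian tubule markers was lower in the Rrp6 libraries of S3 poly(A) RNA, at 216 to 276 against 511 to 710, with Irk2 at 0 in both groups. Oatp58Dc carried that sum, at 87.8 and 96.2 against 451, 562 and 382, while CAH3 stood at 165 and 113 against 142, 121 and 109. The summed level of 5 neuron markers in S2 poly(A) RNA was 179 to 316 with Rrp6 dsRNA against 42.1 to 99.6 with GFP dsRNA, with Syx1A at 0 in both groups. Of it brp made up 144 and 286 against 27.9 and 83.4, and nSyb stood at 2.21 and 0 against 1.82 and 3.48. The sum of 4 imaginal disc markers was 187 to 217 against 105 to 116, of which sd made up 147 and 185 against 100.1 and 110.1. Hemocyte markers summed to 2970 to 3370 in the Rrp6 libraries of S2 poly(A) RNA, against 2600 to 2920 in the GFP libraries. In S3 poly(A) RNA they summed to 1890 to 2380 against 2870 to 3590. These markers did not move together. In S2 Col4a1 stood at 2024 and 1889 against 1150 and 1653, and Pxn at 191.8 and 147.5 against 521.8 and 266.5. In S3 Pxn stood at 784 and 1424 against 2629, 2564 and 2210, and ush at 435 and 170 against 136, 156 and 80.3. Fat body, midgut and tubule are tissues in which many P450 genes are active, and the part of these markers in the P450 results was not tested.

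**Figure D2:**
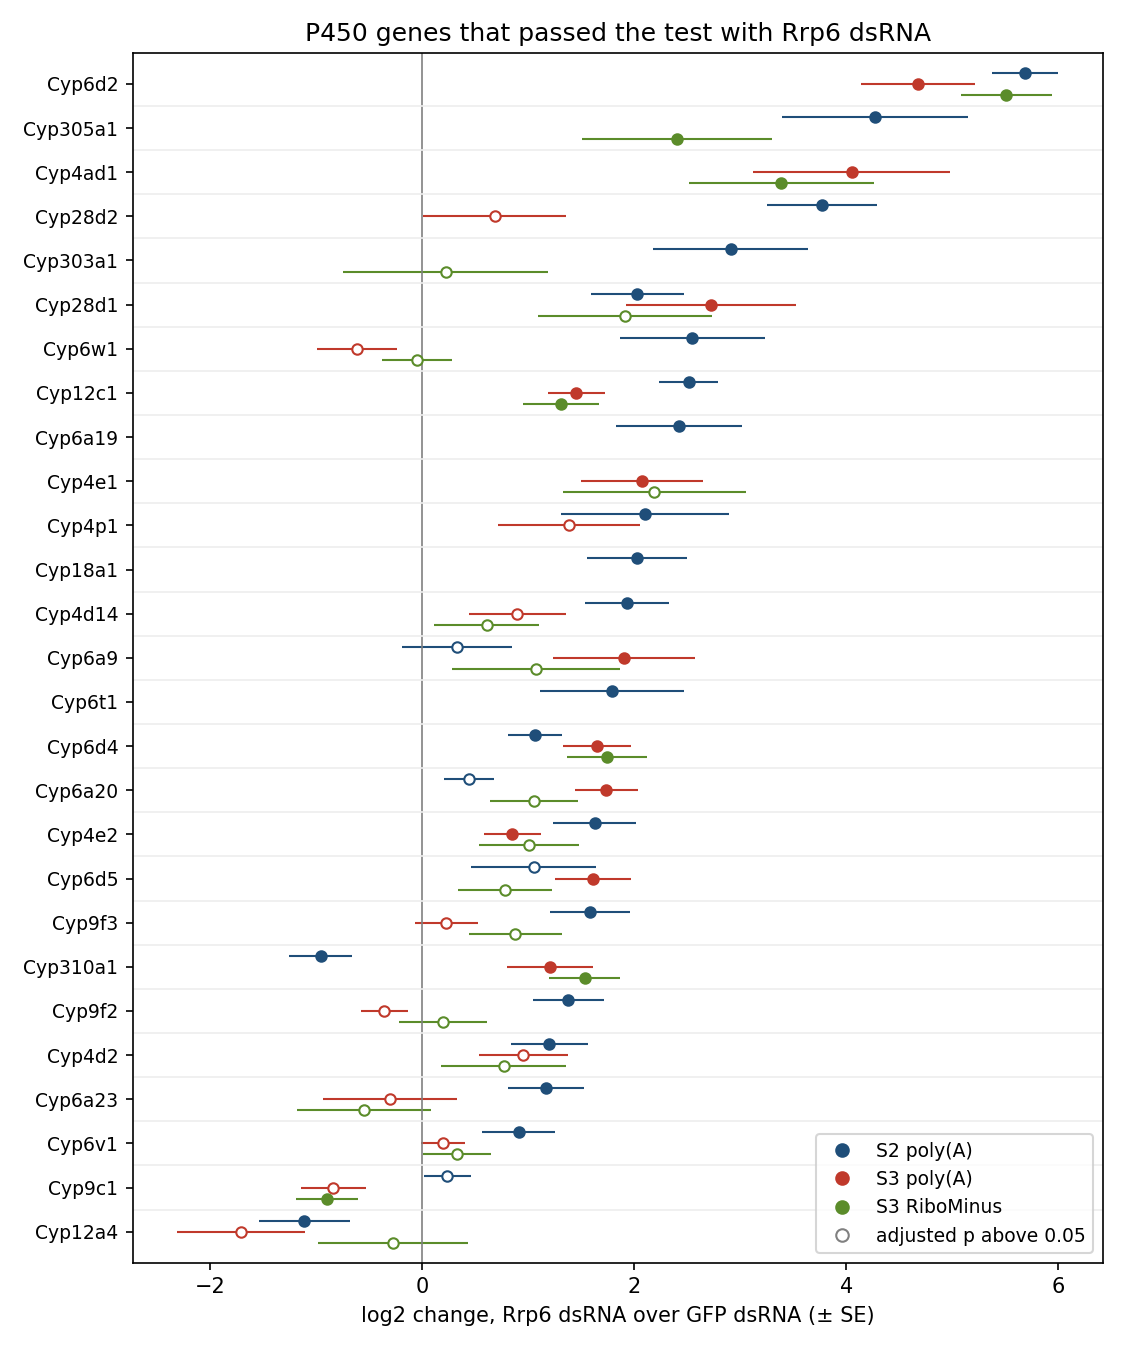
Log2 difference between Rrp6 dsRNA and GFP dsRNA, with its standard error, for each P450 gene that passed the test in at least 1 of 3 sets (blue, S2 poly(A); red, S3 poly(A); green, S3 RiboMinus), where open circles have an adjusted p above 0.05 and a missing circle was not tested. Cyp6d2 lies at 4.68 to 5.69, most other genes lie between 0.5 and 4.5, and Cyp12a4, Cyp9c1 and Cyp310a1 have a closed circle below 0.

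In the CYP2 clan Cyp18a1, Cyp303a1 and Cyp305a1 were tested in S2 poly(A) RNA, the last only through its level in the Rrp6 libraries. Cyp18a1, which inactivates the moulting hormone ecdysone, stood at 16.7 and 21.5 CPM with Rrp6 dsRNA, against 3.08 and 9.27 with GFP dsRNA, and rose by 2.03 ± 0.47 (edgeR adjusted p = 0.0019). Cyp303a1, needed for mechanosensory bristles and overlapping heix, stood at 7.74 and 8.05 against 0.912 and 1.16, and rose by 2.91 ± 0.73 (edgeR adjusted p = 0.0036). Neither gene's groups overlapped, but both calls were lost without the deeper Rrp6 or GFP library (edgeR adjusted p of 0.196 and 0.247 for Cyp18a1, 0.397 and 0.128 for Cyp303a1), and Cyp18a1 then differed by 1.46 and 1.30 and Cyp303a1 by 1.75 and 3.38.

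Cyp305a1, the third of them, had 53 and 5 reads with Rrp6 dsRNA, against 4 and 0 with GFP dsRNA, in S2 poly(A) RNA. The log2 difference there was 4.27 ± 0.88, and it was 2.40 ± 0.90 in the S3 RiboMinus set, on 33 and 1 against 6 and 0 reads. In both sets Cyp305a1 reached the filter's level in the Rrp6 libraries alone, so no p is given for the filtered fit. Without the filter its differences were 4.20 and 2.18 (edgeR adjusted p of 3.63e-05 and 0.125).

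In the CYP3 clan the S2 poly(A) set had 11 of 23 tested genes that rose and 1 that fell, the S3 poly(A) set 7 of 23 that rose, and the S3 RiboMinus set 3 of 22 that rose and 1 that fell. Of the 11, Cyp6t1 and Cyp6w1 reached the filter's level only in the Rrp6 libraries. By the same test 20.2%, 19.7% and 12.4% of all genes rose by set, and the S3 RiboMinus share of the clan is near its value. Cyp28d1 and Cyp28d2 are adjacent genes, and Cyp28d1, which has been linked to nicotine resistance, overlaps CG7742. In S2 poly(A) RNA Cyp28d2 stood at 38.4 and 14.7 CPM with Rrp6 dsRNA, against 3.19 and 0 with GFP dsRNA, and rose by 3.77 ± 0.52 (edgeR adjusted p = 8.6e-06). Cyp28d1 stood at 18.5 and 21.5 against 4.67 and 4.63, and rose by 2.03 ± 0.44 (edgeR adjusted p = 0.001). That S2 call was lost without the deeper Rrp6 or GFP library (edgeR adjusted p of 0.0698 and 0.0541).

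Cyp28d1 also passed in S3 poly(A) RNA, by 2.72 ± 0.80 (edgeR adjusted p = 0.025), but on levels of 41.7 and 3.85 against 2.26, 3.59 and 9.06. The deeper Rrp6 library was far above the rest and the shallower one lay among the GFP libraries. Without the deeper Rrp6 library the difference was -0.69 (edgeR adjusted p = 0.698). Without the first or the second GFP replicate the call was lost as well (edgeR adjusted p of 0.132 and 0.112).

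Cyp310a1, which overlaps MESR3, passed the test in opposite directions in the 2 lines. Among the S3 poly(A) libraries it stood at 93.2 and 99.0 CPM with Rrp6 dsRNA, against 39.3, 74.8 and 20.7 with GFP dsRNA, and rose by 1.20 ± 0.41 (edgeR adjusted p = 0.042). In the S3 RiboMinus set it stood at 158 and 140 against 47.7 and 70.2, and rose by 1.53 ± 0.33 (edgeR adjusted p = 0.00011). In S2 poly(A) RNA it stood at 18.8 and 14.7 against 35 and 32.4, and fell by 0.96 ± 0.30 (edgeR adjusted p = 0.015).

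The Cyp310a1 groups overlapped in no set, but the difference of the responses between the lines, 2.18 ± 0.62, missed the threshold (edgeR adjusted p = 0.087). The S3 poly(A) call was lost without any of 8 of the 9 libraries of that set, the exception being the second GFP replicate, with edgeR adjusted p of 0.0531 to 0.286 and a difference of 0.533 without the shallower Rrp6 library. The S2 call was lost without the deeper Rrp6 or GFP library (edgeR adjusted p of 0.136 and 0.16), and the S3 RiboMinus call also without the deeper Rrp6 library, which left 0.685, or the deeper GFP library (edgeR adjusted p of 0.526 and 0.156).

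Cyp6w1, which has been reported to metabolise DDT, stood at 13.0 and 6.71 CPM with Rrp6 dsRNA, against 1.14 and 5.79 with GFP dsRNA, in S2 poly(A) RNA, and differed by 2.55 ± 0.68. It reached the filter's level in the Rrp6 libraries alone, and without the filter it differed by 2.48 (edgeR adjusted p = 0.000535). Its shallower libraries were close to each other. Cyp6v1 stood at 24.6 and 24.1 against 11.4 and 17.4 and rose by 0.91 ± 0.34 (edgeR adjusted p = 0.043), the smallest rise to pass in that set. Among the other S2 calls of the clan were Cyp6a19, Cyp6a23, Cyp6t1, Cyp9f2 and Cyp9f3, with log2 differences of 1.16 to 2.42, of which the Cyp6t1 call was lost without the filter (1.71, edgeR adjusted p = 0.058). Without the deeper GFP library Cyp6w1 differed by 0.761 and missed the threshold (edgeR adjusted p = 0.679). Cyp6v1 missed it without the shallower Csl4, either GFP or the deeper Rrp6 library, with differences of 0.425 to 0.942 (edgeR adjusted p of 0.0677 to 0.62).

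In S3 poly(A) RNA Cyp6a20, linked to aggressive behaviour in flies, stood at 138 and 42.3 CPM with Rrp6 dsRNA, against 48.8, 58.6 and 6.47 with GFP dsRNA. The groups overlapped across depths, and with the depth class in the fit it rose by 1.74 ± 0.30 (edgeR adjusted p = 0.0021). Cyp6a9, on 46 and 5 reads against 19, 141 and 0 in libraries of unequal depth, rose by 1.9 ± 0.67 (edgeR adjusted p = 0.049), a call lost without any 1 of the 9 libraries, with differences of 1.30 to 3.26 (edgeR adjusted p of 0.055 to 0.183). Cyp9c1, the P450 gene with the highest mean level in the GFP poly(A) libraries of each line, stood at 185 and 112 CPM with Rrp6 dsRNA, against 265 and 435 with GFP dsRNA, in the S3 RiboMinus set and fell by 0.90 ± 0.29 there (edgeR adjusted p = 0.015). That fall was lost without the deeper GFP library and without the shallower Rrp6 library, which left -1.09 and -0.459 (edgeR adjusted p of 0.165 and 0.365).

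In the CYP4 clan 4 of 8 tested genes (Cyp4p1, Cyp4d14, Cyp4e2 and Cyp4d2), 3 of 13 and 1 of 14 rose by set, and 0 fell. Of the 4, Cyp4p1 reached the filter's level only in the Rrp6 libraries. Beside the 20.2%, 19.7% and 12.4% of all genes that rose, the last 2 counts are no result about the clan. The first rests on 8 tested genes and was not tested against the share of all genes. Cyp4ad1, Cyp4e2 and Cyp4e1 are adjacent, and all 3 rose in S3 poly(A) RNA. Cyp4ad1 stood at 11.4 and 31.7 CPM with Rrp6 dsRNA, against 0, 1.37 and 2.59 with GFP dsRNA, and rose by 4.05 ± 0.93 (edgeR adjusted p = 0.0085). In the S3 RiboMinus set it had 94 and 0 reads against 8 and 0 and rose by 3.39 ± 0.87 (edgeR adjusted p = 0.0013), so that value rests on the deeper libraries.

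Cyp4e1 stood at 7.44 and 4.81 CPM with Rrp6 dsRNA, against 1.13, 1.32 and 3.88 with GFP dsRNA, in S3 poly(A) RNA, and rose by 2.07 ± 0.58 (edgeR adjusted p = 0.02). It overlaps the maltase gene Mal-A1, which stood at 4.67 and 0.962 with Rrp6 dsRNA, against 0.162, 0.171 and 1.29 with GFP dsRNA, and rose by 3.97 ± 1.09 (edgeR adjusted p = 0.019) on the deeper Rrp6 library, while the shallower one lay below the shallower GFP library. Cyp4e2 stood at 65.2 and 37.5 against 29.7, 33.3 and 25.9 in that set and rose by 0.85 ± 0.27 (edgeR adjusted p = 0.034). In S2 poly(A) RNA it stood at 33.2 and 16.1 against 11.9 and 2.32 and rose by 1.62 ± 0.39 (edgeR adjusted p = 0.0026). The Cyp4e1 and Cyp4e2 groups did not overlap. Without the deeper Rrp6 library of S3 Cyp4e1 differed by 1.13 and Cyp4e2 by 0.412, and both missed the threshold (edgeR adjusted p of 0.474 and 0.508). They also missed it without the first GFP replicate (edgeR adjusted p of 0.098 and 0.118) or the second (0.109 and 0.0849), and Cyp4e2 without the third or the shallower Rrp40 library (0.0929 and 0.0923), as it did in S2 without the deeper Rrp6 library (0.184).

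The mitochondrial clan held Cyp12c1, which rose with Rrp6 dsRNA in all 3 sets, as Cyp6d4 did (7.08% of all genes tested in the 3 sets rose in each). It stood at 103 and 75.1 CPM with Rrp6 dsRNA, against 18 and 13.9 with GFP dsRNA, in S2 poly(A) RNA. Within the S3 poly(A) set the levels were 136 and 122 against 36.5, 49.9 and 60.8, and in the S3 RiboMinus set 125 and 131 against 49.1 and 63.2. The groups overlapped in no set.

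Cyp12c1 rose by 2.51 ± 0.28, 1.45 ± 0.27 and 1.31 ± 0.36 on the log2 scale in those sets (edgeR adjusted p of 5.1e-07, 0.0032 and 0.0034). The S3 RiboMinus call was lost without the deeper GFP library, which left 0.565, and without the deeper Rrp6 library, which left 1.81 (edgeR adjusted p of 0.668 and 0.0947). Cyp12a4, linked to resistance to the insecticide lufenuron, stood at 8.06 and 6.71 against 20.9 and 6.95 in S2 poly(A) RNA and fell by 1.11 ± 0.43 (edgeR adjusted p = 0.045). Its shallower libraries were alike and the deeper ones lay apart. The call was lost without the deeper Rrp6, Csl4 or GFP library, which left -0.415, -1.09 and -0.17 (edgeR adjusted p of 0.769, 0.0678 and 0.925). Of 6 tested mitochondrial-clan genes, 1 rose and 1 fell in S2 poly(A) RNA and 1 of 6 rose in S3 poly(A) RNA, as did 1 of 8 in the S3 RiboMinus set, shares near or below the 20.2%, 19.7% and 12.4% of all genes that rose by set.

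Taking the 3 sets side by side, 54 of the 84 genes were tested in at least 1 set and 30 in all 3. With Rrp6 dsRNA 25 rose in at least 1 set and 3 fell (Cyp12a4, Cyp310a1 and Cyp9c1). A further 12 genes were tested in all 3 sets and passed in none, with log2 differences of -0.96 to 1.31. Over all genes tested in at least 1 set, 28% rose in at least 1. Among the 32 P450 genes tested in both poly(A) sets, 9 rose in S3 cells and 14 in S2 cells, with 5 in both. Over all genes tested in both, the shared rises were 60.6% of those in S3 and 63.1% of those in S2, against 5 of 9 and 5 of 14 here. Of the 25 that rose, 15 overlap another gene in the Release 6 annotation.

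In the authors' deposited table for Rrp6 dsRNA in S2 poly(A) RNA, Cyp6d2 is the only P450 gene called higher, where 0.429% of all genes are. In S3 poly(A) RNA the authors' deposited table calls Cyp6d2, Cyp4ad1, Cyp28a5 and Cyp28d1 (2.1% of all genes), and in the S3 RiboMinus set Cyp6d2, Cyp28d2 and Cyp4ad1 (2.67% of all genes). Cyp28a5 rests there on 215 reads in the deeper Rrp6 library and 0 in the shallower one.

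Fewer P450 genes passed with Csl4 and Rrp40 dsRNA than with Rrp6 dsRNA. With Csl4 dsRNA 1 of 40 tested genes (1.82% of all genes), 0 of 42 (0.227% of all genes) and 1 of 46 (1.69% of all genes) rose by set. With Rrp40 dsRNA the counts were 1 of 40 (0.101% of all genes), 0 of 42 (0% of all genes) and 1 of 46 (0.193% of all genes). Each gene that rose in edgeR was Cyp6d2, which had been singled out over the same GFP libraries, and none fell. The authors' deposited tables call Cyp4ad1 beside Cyp6d2 with Csl4 dsRNA in S3 RiboMinus RNA (0.428% of all genes). With Rrp40 dsRNA they call Cyp6d2 in S3 poly(A) RNA (1.68% of all genes). The Rrp40 rise of Cyp6d2 in S2 poly(A) RNA rests on 1 library. In S3 poly(A) RNA, where none passed, 4 P450 genes with Csl4 and 3 with Rrp40 dsRNA had an unadjusted p under 0.05 in edgeR, and DESeq2 called 1 in each.

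Cyp12c1 and Cyp4ad1 show the size of these smaller differences. Cyp12c1 differed by 0.98 ± 0.29 with Csl4 dsRNA and 0.54 ± 0.45 with Rrp40 dsRNA in S2 poly(A) RNA (edgeR adjusted p of 0.081 and 1). Cyp4ad1 differed by 2.12 ± 0.97 with Csl4 and 1.91 ± 0.91 with Rrp40 dsRNA in S3 poly(A) RNA (edgeR adjusted p of 0.49 and 0.94). The median over the P450 genes tested was 0.50 with Csl4 dsRNA in S2 poly(A) RNA and 0.08 to 0.25 in the other Csl4 and Rrp40 comparisons, against -0.01 to 0.01 over all genes.

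**Figure D3:**
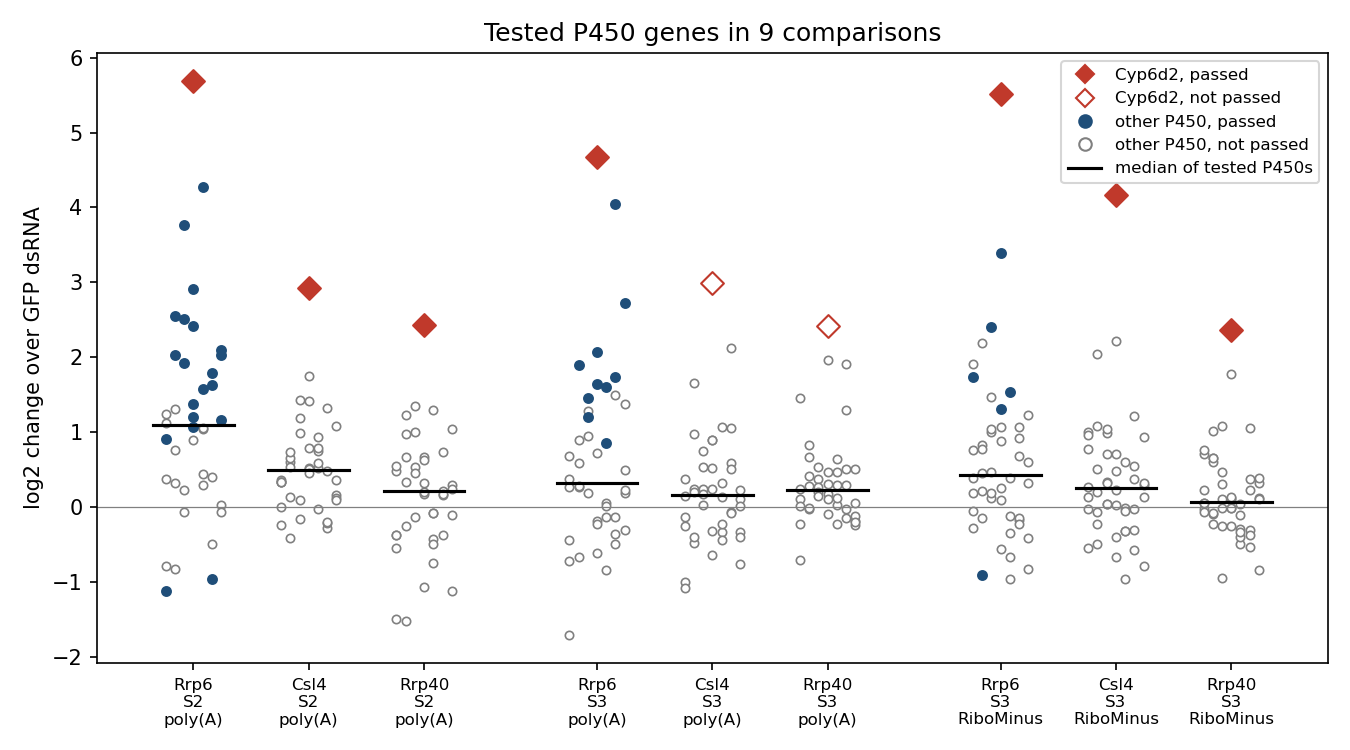
Log2 difference from GFP dsRNA for each tested P450 gene (vertical axis) in the 9 comparisons of a dsRNA, line and RNA fraction, with the median as a bar, diamonds for Cyp6d2 and circles for the other genes, filled where the adjusted p is at most 0.05. Cyp6d2 is the highest gene in every comparison and no other P450 gene passed with Csl4 or Rrp40 dsRNA.

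In S2 RiboMinus RNA the libraries were too shallow for most of the family. With at least 10 reads in a pair of libraries, 4 P450 genes could be read for Rrp6 dsRNA and 3 each for Csl4 and Rrp40 dsRNA. Past 2-fold were 2 of 4 (29.9% of all genes), 1 of 3 (17.7% of all genes) and 1 of 3 (15% of all genes). Cyp6a20 had 13 reads with Rrp6 dsRNA against 2 with GFP dsRNA, a ratio of 9.09 after scaling (95% counting interval 2.06 to 83), and 13 reads with Rrp40 dsRNA against the same 2 (4.92, interval 1.11 to 44.9). Cyp6d4 had 9 reads with Rrp6 and 10 with Csl4 dsRNA against 3 with GFP dsRNA, ratios of 4.19 (1.05 to 24.1) and 3.28 (0.844 to 18.5). These intervals cover counting error only.

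The lines used different P450 genes before any exosome dsRNA. Between GFP poly(A) libraries 46 P450 genes were tested, of which 17 were higher in S3 (14.2% of all genes) and 3 lower (13% of all genes), with a median log2 difference of 1.36 over P450 genes and 0.05 over all genes. Without the replicate block 13 of the family passed. Some genes passed the filter on low reads only through the line where they were high. In S3 these were Cyp6w1, Cyp4g15, Cyp4p2, Cyp6g2, Cyp4p3 and Cyp6t3, and in S2 Cyp6a22, Cyp18a1 and Cyp4d20. Their p-values lean on the values that let them into the test, and the counts of 17 and 3 include them. Cyp6w1 differed most, at 335, 244 and 110 CPM in S3 cells against 1.14 and 5.79 in S2 cells, a log2 difference of 7.26 ± 0.82 (edgeR adjusted p = 0.00093). Cyp4g15, a relative of the hydrocarbon-making enzyme Cyp4g1, stood at 8.24, 8.41 and 11.7 in S3 against 0.228 and 0 in S2, higher by 5.57 ± 0.73 (edgeR adjusted p = 0.0018).

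Cyp4p2, Cyp6g2 and Cyp4p3 followed, higher in S3 by 4.60 ± 0.75, 4.08 ± 0.58 and 2.99 ± 0.78 (edgeR adjusted p of 0.0043, 0.0025 and 0.034). These calls were lost without the deeper GFP library of S2 (edgeR adjusted p of 0.0877, 0.0786 and 1). The rest that were higher in S3 were Cyp6v1, Cyp6a13, Cyp6t3, Cyp9f2, Cyp12d1-d, Cyp6d5, Cyp9f3, Cyp4e2, Cyp6d2, Cyp12c1, Cyp12e1 and Cyp9c1, by 1.45 to 2.96. Cyp6d2 itself was higher in S3 by 1.71 ± 0.44 (edgeR adjusted p = 0.027), a call lost without the third GFP replicate of S3 (edgeR adjusted p = 0.0542). Those of Cyp6a13, Cyp12e1 and Cyp6d5 were lost without the deeper GFP library of S2 (0.215, 0.0851 and 0.255), those of Cyp12e1 and Cyp6d5 also without the second GFP replicate of S3 (0.0917 and 0.0596), and that of Cyp12e1 without the first (0.052).

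Lower in S3 were Cyp6a22, Cyp18a1 and Cyp4d20. Cyp6a22 stood at 0, 0.277 and 0 CPM in S3 against 19.8 and 16.2 in S2, a log2 difference of -6.21 ± 0.68 (edgeR adjusted p = 0.00084). Cyp18a1 stood at 0.646, 0.422 and 0 in S3 against 3.08 and 9.27 in S2, a difference of -2.75 ± 0.69 (edgeR adjusted p = 0.026). Cyp4d20 stood at 0.969, 0.620 and 0 in S3 against 4.44 and 2.32 in S2, a difference of -2.48 ± 0.64 (edgeR adjusted p = 0.027). The levels of all 3 lay apart between the lines, but without the deeper GFP library of S2 the calls of Cyp6a22 and Cyp18a1 were lost (edgeR adjusted p of 0.0761 and 0.0722), and Cyp18a1 missed the threshold without the second GFP replicate of S3 as well (0.0835).

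The genes with the most reads also differed between the lines. In S3 GFP poly(A) libraries they were Cyp9c1 (305 to 681 CPM), Cyp6w1 (110 to 335), Cyp6v1 (88.0 to 91.9), Cyp12a5 (50.4 to 67.3) and Cyp9f2 (53.8 to 64.7). In S2 they were Cyp9c1 (150 to 226), Cyp6d4 (56.8 to 99.6), Cyp6a20 (44.0 to 75.7), Cyp6a17 (39.4 to 54.0) and Cyp4aa1 (6.16 to 66.0). Cyp4aa1, which overlaps other genes, had 54 reads in the deeper S2 library and 57 in the shallower one. Reads rise with gene length, so these lists rank reads and not transcripts.

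**Figure D4:**
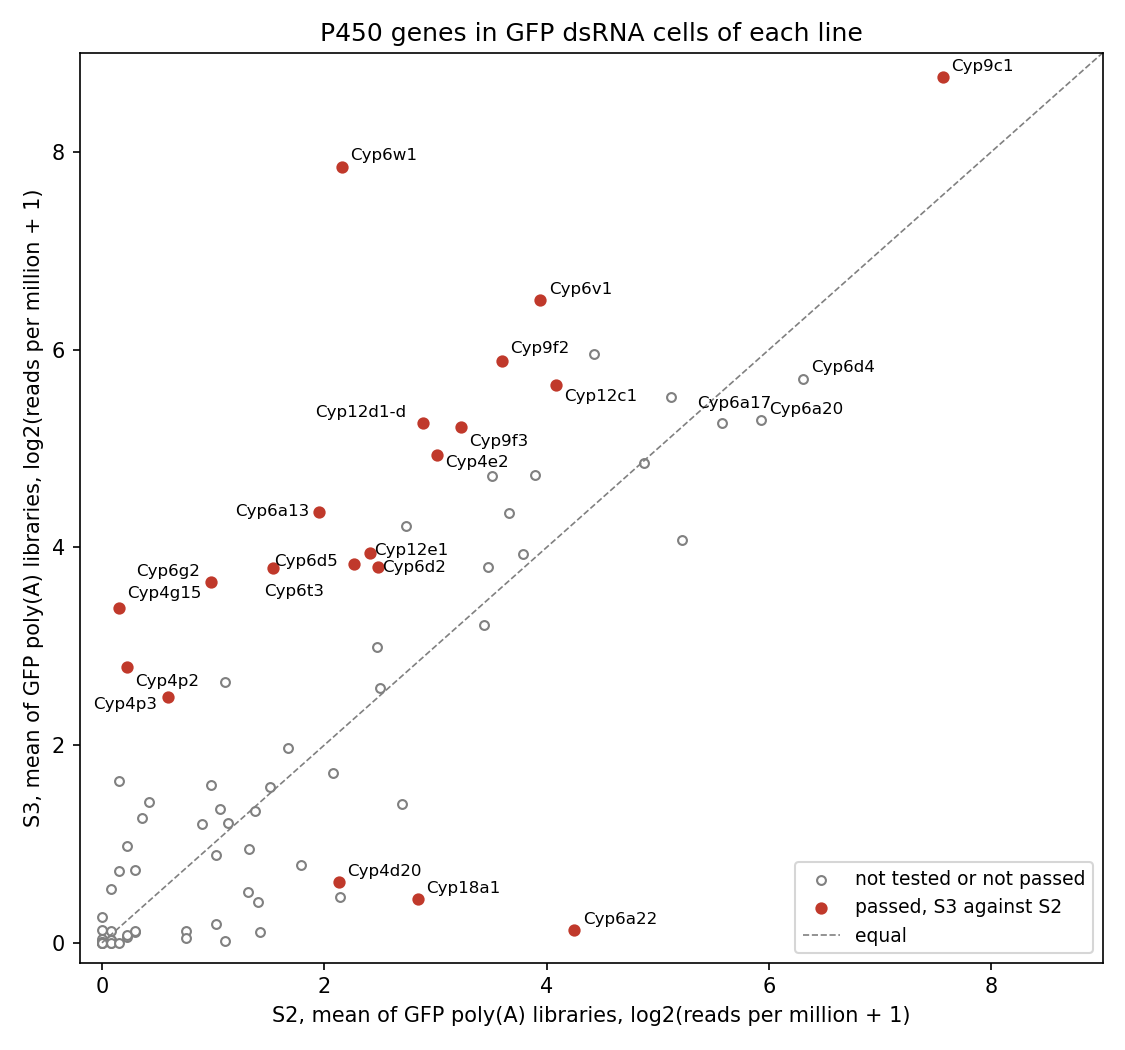
Mean level of each P450 gene in GFP poly(A) libraries of S3 cells (vertical axis) against S2 cells (horizontal axis), as log2 of CPM plus 1, with filled circles for genes that passed the test between the lines and a dashed line of equal levels. Most filled circles lie above the line, led by Cyp6w1, and Cyp6a22, Cyp18a1 and Cyp4d20 lie below it.

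The Rrp6 response itself was compared between the lines in a fit to all poly(A) libraries, S3 minus S2, with 54 P450 genes tested. Cyp6a22 responded more in S3 (1.8% of all genes did), and Cyp6w1 and Cyp9f2 responded less (0.835% of all genes did). Cyp9f2 stood at 43.5 and 46.2 CPM with Rrp6 dsRNA against 55.9, 53.8 and 64.7 with GFP dsRNA in S3, and at 26.9 and 36.2 against 11.7 and 10.4 in S2. The difference of its responses was -1.75 ± 0.40 (edgeR adjusted p = 0.032). For Cyp6w1 the levels in S3 were 115 and 134 against 335, 244 and 110, and the difference of the responses was -3.25 ± 0.82 (edgeR adjusted p = 0.048).

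Cyp6a22 had 16 and 2 reads with Rrp6 dsRNA against 0, 21 and 0 with GFP dsRNA in S3, where the 21 came from the deepest library, and 67 and 16 against 174 and 14 in S2. The difference of its responses was 3.68 ± 0.89 (edgeR adjusted p = 0.041). When 1 of the 16 libraries was left out in turn, Cyp6a22 and Cyp6w1 each missed the threshold in 10 fits and Cyp9f2 in 8, and the differences ranged over 3.08 to 7.93 for Cyp6a22, -4.12 to -1.18 for Cyp6w1 and -2.14 to -1.56 for Cyp9f2 (edgeR adjusted p of up to 0.347, 0.812 and 0.17). For Cyp6d2 the difference between the lines was -0.98 ± 0.78 (edgeR adjusted p = 0.63). The count of 3 between the lines was 0 without the deeper Rrp6, Csl4 or GFP library or the shallower GFP library of S2, or the first GFP replicate of S3. It was 1 without the shallower Rrp6 or Csl4 library of S2 or the second GFP replicate of S3, and 5 without the shallower Rrp6 library of S3. Without the replicate block it was 0.

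Between the RNA fractions of S3 cells, RiboMinus minus poly(A), 49 P450 genes were tested and the Rrp6 response of none differed in either direction in edgeR (0% of all genes in both directions), with 1 P450 gene at an unadjusted p under 0.05 and 0 called by DESeq2. The difference for Cyp6d2 was 0.79 ± 0.76 and for Cyp6d4 0.01 ± 0.51 on the log2 scale.

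P450 enzymes need electron partners and work in sequence with conjugating enzymes and exporters, and these lists were read beside the family. Cpr, the reductase that feeds electrons to microsomal P450s, fell with Rrp6 dsRNA in S3 cells. It stood at 473 and 615 CPM against 1493, 2083 and 1845 with GFP dsRNA in S3 poly(A) RNA and at 522 and 299 against 927 and 969 in the S3 RiboMinus set, without overlap. It fell by 1.78 ± 0.25 and by 1.1 ± 0.28 on the log2 scale (edgeR adjusted p of 0.00084 and 0.00097). In S2 poly(A) RNA it stood at 107 and 69.7 against 153 and 97.3, a difference of -0.50 ± 0.23 (edgeR adjusted p = 0.087). The other tested genes of the 5 electron partners did not pass in any Rrp6 comparison, and of 6 ecdysteroid synthesis genes with other symbols, such as shd, 2 to 3 were tested and none passed.

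Of 35 glutathione S-transferases, which conjugate glutathione to toxins, 14 of 27 tested genes passed upwards and 1 downwards in the S2 poly(A) set. The S3 poly(A) set had 8 of 29 upwards and 4 downwards, and the S3 RiboMinus set 6 of 29 and 2, where 20.2%, 19.7% and 12.4% of all genes rose and 16.9%, 16.4% and 7.35% fell by set. GstD5 rose by 3.98 ± 0.28 in S2 (edgeR adjusted p = 6.1e-10), and GstE12 fell by 2.02 ± 0.24 in S3 poly(A) RNA (edgeR adjusted p = 0.00045). Of 35 UDP-glycosyltransferases, which add sugars, those sets had 2 of 7, 5 of 16 and 7 of 17 upwards and 1, 5 and 0 downwards. Ugt302C1 and Ugt302K1 rose in all 3, by 1.9 to 2.49 and by 3.62 to 5.25. In both S3 sets Ugt302K1 reached the filter's level only in the Rrp6 libraries, so its calls there lean on the values that let it in. The counts of both lists include other genes of this kind, such as GstZ2 in S2 poly(A) RNA.

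Of the 4 ABC drug transporters, which export toxins, 2 of 3 tested, 3 of 3 and 3 of 4 rose by set, and 0 fell. Over all genes tested 20.2%, 19.7% and 12.4% rose. Mdr49 rose by 4.67 ± 0.33, 5.43 ± 0.44 and 4.55 ± 0.50 in those sets (edgeR adjusted p of 9.6e-10, 9.3e-05 and 3.7e-17). MRP rose by 1.53 ± 0.21, 2.13 ± 0.25 and 1.86 ± 0.28 (edgeR adjusted p of 6.7e-06, 0.00038 and 4.8e-09). With Csl4 dsRNA 3 of 27 transferases, 2 of 7 glycosyltransferases and 2 of 3 transporters rose in S2 poly(A) RNA (1.82% of all genes). Cyp6d2 was the P450 gene that rose there. In S3 poly(A) RNA the counts were 0 of 29, 0 of 16 and 0 of 3 (0.227% of all genes). In the S3 RiboMinus set 1 of 29, 3 of 17 and 2 of 4 rose (1.69% of all genes), and 1 transferase fell (0.471% of all genes). With Rrp40 dsRNA no gene of these lists passed in any set. Of 6 regulators of such genes, Met and gce, the juvenile hormone receptors, rose in both poly(A) sets by 1.01 to 1.21. In S2 poly(A) RNA ss rose by 2.39 ± 0.65, and maf-S fell in both poly(A) sets by 0.64 and 0.73. The edgeR adjusted p of these calls was 0.0012 to 0.04. Since ss reached the filter's level of 6.86 CPM only in the Rrp6 libraries, its p-value leans on the values that let it in.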

How the data were processed

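The deposited tables compare each dsRNA with GFP dsRNA gene by gene. Their signal columns are group means of counts that the authors had divided by DESeq size factors, the fold columns are the authors' ratios of those means, the log2 columns their log2, and the deposited adjusted p-value comes from DESeq with a local fit, per the file headers. The submitters' processing notes name TopHat 1.4.1 on the dm3 build, HTSeq 0.5.3p9, cutadapt 1.0, DESeq 1.9.11 and CASAVA 1.8. The test planned for counts was kept, because whole reads of 28 libraries could be recovered from the means (34 RNA samples are labelled), and the 12 repeated copies of GFP libraries matched exactly. Summary rows that name no gene, 81.5 to 91.9% of the mean total, stayed out of library sizes and tests.

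Reads were tested with edgeR 4.0.16 in R 4.3.3 (quasi-likelihood test, filterByExpr, TMM, Benjamini-Hochberg adjustment across every gene tested, threshold 0.05), in 1 fit per line and RNA fraction, with the dsRNA and, as a replicate block, the depth class of the library. Standard errors are the log2 difference divided by the square root of the F statistic. From group to group, the gene-by-gene differences between deeper and shallower libraries were correlated. The correlations were 0.65 to 0.68 in the S2 poly(A) set and 0.35 to 0.61 in the S3 poly(A) set. In the S3 RiboMinus set they were 0.25 to 0.35. Libraries of unequal depth can share such differences without being pairs, so the correlations cannot show that a class holds matched replicates. Which replicate number an exosome library bears could not be told where a group had 2, so depth took the number's place, with GFP replicate 3 the shallower. The depth class, called the replicate block here, is thus a stand-in and not a replicate. In S3 poly(A) RNA the deeper class held GFP replicates 1 and 2. There the labels give replicates 1 and 3 for Rrp6 and Csl4 and 2 and 3 for Rrp40. The file headers name the libraries as biological replicates. The code was tested on simulated counts.

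Genes were named by a rule: the Cyp6d genes in each comparison, the 5 highest and 5 lowest genes that passed in each, those that passed in 2 or more, and the 5 with the most reads in GFP libraries of each line. The rule asked for levels per kilobase, which need gene lengths of the authors' build that are not used here, so reads were ranked. Genes that the text only lists by name, the Cyp28a5 and Cyp6t1 reads and CG30196 were added after their values were seen. The family and the lists of other genes were chosen with earlier results of these data known. Symbols and neighbours come from the Release 6 annotation by gene ID, and listed symbols not matched in the tables were left out. Binding-site lists were not analysed here. The alternatives tried were no replicate block, DESeq2 1.42.0, RLE scaling, no filter, each comparison's own libraries, leaving out each library, and the authors' test.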

Additional observations from a re-analysis of the deposited data

Results flagged for a closer look

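The Rrp6 response of 3 of 54 tested P450 genes differed between the lines in a test of the difference itself (S3 minus S2, poly(A) RNA, edgeR adjusted p at most 0.05). The share that responded more in S3 was 1.85%, near the 1.8% of all genes, and the share that responded less was 3.7%, against 0.835%. Cyp6a22 responded more in S3 cells by 3.68 ± 0.89 on the log2 scale (edgeR adjusted p = 0.041), Cyp6w1 responded less by -3.25 ± 0.82 (0.048), and Cyp9f2 responded less by -1.75 ± 0.40 (0.032). Their GFP levels in S3 against S2 were 335, 244 and 110 against 1.14 and 5.79 CPM for Cyp6w1, 55.9, 53.8 and 64.7 against 11.7 and 10.4 CPM for Cyp9f2, and 0, 0.277 and 0 against 19.8 and 16.2 CPM for Cyp6a22. Whether the starting level has a part in the difference of the responses was not tested. Of 16 fits that each left out 1 library, Cyp6a22 and Cyp6w1 missed the threshold in 10 and Cyp9f2 in 8, with an edgeR adjusted p of up to 0.347, 0.812 and 0.17.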

How the results depend on the processing

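Without the replicate block (deeper or shallower library) the counts of P450 genes that passed were 1, 0 and 0 for Rrp6, Csl4 and Rrp40 dsRNA in the S2 poly(A) set, 3 for Rrp6 in the S3 poly(A) set, 1, 0 and 0 in the S3 RiboMinus set, 13 between the lines in GFP libraries and 0 for the Rrp6 response between the lines (with the block 21, 1, 1, 11, 7, 1, 1, 20 and 3). With DESeq2 they were 13 and 0 for Rrp6 and Rrp40 in the S2 poly(A) set, 1 and 1 for Csl4 and Rrp40 in the S3 poly(A) set, and 3 and 0 for Rrp6 and Rrp40 in the S3 RiboMinus set. RLE scaling gave 3 for Csl4 in the S2 poly(A) set. Without the filter on low counts they were 28, 1 and 1 for Rrp6, Csl4 and Rrp40 in the S3 poly(A) set and 7 for the Rrp6 response between the lines, and with only a comparison's own libraries 1 for Csl4 in the S3 poly(A) set. The authors' test gave 1, 0 and 0 in the S2 poly(A) set, 4 and 1 for Rrp6 and Rrp40 in the S3 poly(A) set, and 3, 2 and 0 in the S3 RiboMinus set. The cause of these shifts was not tested. Counts over all genes in these fits are not given here, so a shift of the P450 genes cannot be told from a general one. Leaving out single libraries gave 7 to 23, 1 to 3 and 0 to 1 for Rrp6, Csl4 and Rrp40 in the S2 poly(A) set, 7 to 20, 0 to 1 and 0 to 1 in the S3 poly(A) set, 1 to 8, 0 to 1 and 0 to 1 in the S3 RiboMinus set, 14 to 23 between the lines, 0 to 5 for the response between the lines and 0 to 0 between the fractions. The only direction that turned was Cyp28d1 with Rrp6 dsRNA in the S3 poly(A) set, at -0.689 without the deeper Rrp6 library, with a range of -0.689 to 3.389 over the libraries left out. Of the values of single genes, 54 of 72 kept their call with DESeq2, 71 of 72 with RLE scaling and 24 of 72 without the replicate block. The comparison's own libraries could not be fitted for Rrp40 in the S2 poly(A) set, at least 30 reads left 0 P450 genes in S2 RiboMinus RNA, and binding-site lists were not run. Shallow libraries limit the genes with few reads: a count of 0 in a library allows up to 3 counts.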

Other observations

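A few P450 genes had many reads in 1 library and none in its partner. Cyp6t1 had 261 reads in the deeper Rrp6 library of S3 RiboMinus RNA and 0 in the shallower one, against 9 and 0 in the GFP libraries. Cyp28a5 had 215 reads in the deeper Rrp6 library of S3 poly(A) RNA and 0 in the shallower one, against 8, 67 and 0 in the GFP libraries.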
